A study of Saccharomyces cerevisiae with 12 samples.

Results

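The enzymes by which budding yeast builds glutamate and glutamine from 2-oxoglutarate and ammonium are encoded by GLT1, GDH1, GDH3 and GLN1. GDH2, whose enzyme works mostly in the other direction, completes the 5 genes followed here. They were taken by name from the deposited count table, in which all 5 were found among 6216 features, and all 5 passed the filter on low counts. Its 12 columns are RNA sequencing libraries from Saccharomyces cerevisiae of 1 strain, BY4741, a common haploid laboratory yeast, and deletions in HIS3, LEU2, MET17 and URA3 belong to its background in every group. Exponentially growing cells in YPD, a rich medium, were exposed to 500 nM concanamycin A, an inhibitor of the vacuolar proton pump, for 0, 1, 3 or 6 h, and each duration has 3 libraries. Untreated cultures of matching age are not analysed here, and so duration of culture and of exposure cannot be told apart.

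Glutamate is the main carrier of amino nitrogen in yeast, and glutamine is the other. NADP-dependent glutamate dehydrogenases (GDH1 and GDH3, a pair of isozymes) add ammonium to 2-oxoglutarate to form glutamate. In the second route, glutamine synthetase (GLN1) adds ammonium to glutamate, and glutamate synthase (GLT1, an iron-sulfur flavoenzyme also called GOGAT) transfers the amide nitrogen of glutamine to 2-oxoglutarate. The NAD-dependent dehydrogenase GDH2 works mostly in the other direction and releases ammonium from glutamate. On a rich medium part of these amino acids is taken up from outside.

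GLT1 fell steeply and at each step, GDH1 fell to 42.4% of its starting level by 6 h, and GLN1 fell within 1 h and stayed low. GDH3, the scarcest of the 5 at 0 h, rose at 3 h and 6 h, and the libraries of GDH2 overlapped those of 0 h at every later time. By edgeR's quasi-likelihood test with Benjamini-Hochberg adjustment over 5615 features, 4 of the 5 genes were lower at 1 h and 0 were higher, with all 5 fold changes negative in every setting tried. Over all tested features 23.4% were lower and 24.5% higher at 1 h. At 3 h, 3 genes were lower and 1 was higher, against 24.5% and 26.3% of all features. At 6 h, 3 were lower and 1 was higher, against 28.9% and 33.0%. From 1 h to 3 h, 2 were lower and 1 was higher (all features 17.6% and 16.9%), and from 3 h to 6 h, 1 was lower and 2 were higher (all features 21.7% and 21.0%). Over the 4 times all 5 changed by the F test, as did 78.5% of all features.

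Library totals ran from 8508894 to 11008709 counts. Of the genes deleted in the strain, LEU2, URA3 and MET17 had 0 to 3 counts per library and HIS3, which lacks only part of its sequence, had 363 to 860. Replicate 3 at 0 h stood apart. In it 95 of 5126 features with a mean of at least 10 CPM (counts scaled to library size by the TMM method) differed over 2-fold from the average of its 0 h companions, against 0 to 14 features in each of the 11 others. GDH2 and GLN1 were lower in that library, by log2 differences of -0.59 and -0.47, while GLT1, GDH1 and GDH3 differed by -0.08 to 0.02. Scaling moved the fold changes of all features alike. With total counts in place of TMM, the median log2 fold change of all features against 0 h was 0.21 at 1 h, 0.35 at 3 h and 0.34 at 6 h, and 81.1%, 87.8% and 80.2% of calls were higher, against 51.1%, 51.7% and 53.4% with TMM. Nothing in the labels ties replicates to separate cultures, so the tests weigh only the spread between these libraries. In bulk RNA, fewer cells that express a gene and less RNA per cell cannot be told apart.

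GLT1 (YDL171C, chromosome IV, 149203 to 155640, minus strand, build R64) encodes the glutamate synthase, a long enzyme that receives its cluster in the cytosol. Its 3 libraries held 783, 753 and 780 CPM before exposure (0 h). They held 332, 297 and 292 CPM after 1 h, 129, 132 and 141 after 3 h, and 89.6, 81.5 and 86.3 after 6 h. The 4 times did not overlap, and each later time lay below the one before. The mean fell from 772 ± 16.5 CPM (SD, n = 3) to 85.8 ± 4.07, which is 11.1% of the 0 h level. Against 0 h the log2 fold change was -1.33 ± 0.06 (SE) at 1 h, -2.52 ± 0.06 at 3 h and -3.17 ± 0.07 at 6 h (edgeR adjusted p = 1.63e-09, 1.31e-11 and 7.62e-13). The fall went on between times, by -1.19 ± 0.06 from 1 h to 3 h (adjusted p = 1.58e-08) and by -0.65 ± 0.06 from 3 h to 6 h (adjusted p = 7.14e-06). Of 5615 features, 78 had a lower log2 fold change than GLT1 at 1 h, 6 at 3 h and 1 at 6 h, the leucine synthesis gene LEU1.
The promoter of GLT1 is shown because this gene had the largest fold change of the 5. It is the window from 350 to 51 bases before the start codon in the RefSeq R64 genome, read 5′ to 3′ on the coding strand, and capitals mark matches, on either strand, to TGACTC (the core of the Gcn4 site), GATAAG (the site of the nitrogen-responsive GATA factors), CCAAT (the Hap complex), CCGGNNCCGG (Leu3) or GTCAC (the core of the Rtg1 and Rtg3 site).
GLT1 promoter window, chrIV:155691-155990, minus strand: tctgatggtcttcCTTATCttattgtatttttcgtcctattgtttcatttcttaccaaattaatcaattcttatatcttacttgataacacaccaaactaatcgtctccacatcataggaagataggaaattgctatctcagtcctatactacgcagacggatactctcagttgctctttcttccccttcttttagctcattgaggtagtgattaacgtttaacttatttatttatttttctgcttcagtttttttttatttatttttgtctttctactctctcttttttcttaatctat
This window holds 1 GATAAG match, which begins 337 bases before the start codon, and no match to the other 4 motifs. Among 6001 windows of nuclear protein-coding genes, 14.3% hold GATAAG, 8.07% TGACTC, 42.9% CCAAT, 0.133% CCGGNNCCGG and 27.5% GTCAC. A match is a description of letters and not a measured binding site.

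**Figure D1:**
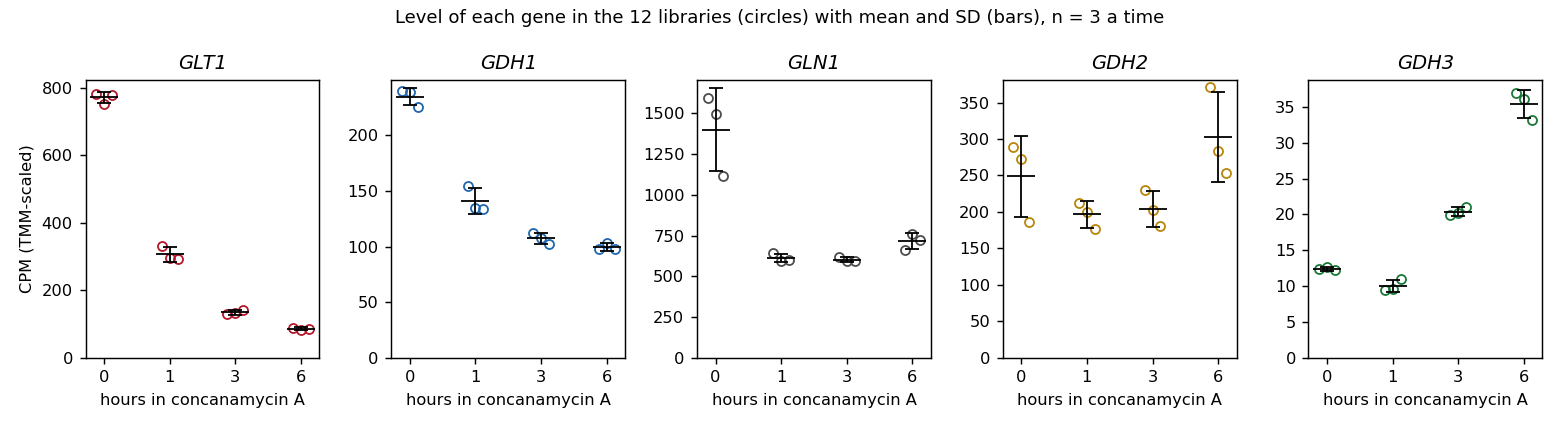
TMM-scaled CPM of the 5 genes (vertical axes from 0, a panel per gene) in each of the 12 libraries (circles) at 0, 1, 3 and 6 h, with the mean and SD of 3 libraries (black). GLT1 runs from 772 CPM at 0 h down to 85.8 at 6 h, GDH3 runs from 12.4 up to 35.4, and the wide 0 h spread of GLN1 and GDH2 comes with their low replicate 3.

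GDH1 (YOR375C, chromosome XV, 1041678 to 1043042, minus strand) encodes the main NADP-dependent glutamate dehydrogenase of cells growing on glucose. Its libraries stood at 239, 239 and 226 CPM at 0 h, 154, 135 and 134 after 1 h, 113, 107 and 103 after 3 h, and 97.6, 103 and 97.8 after 6 h. All later libraries lay below all 0 h libraries, and the 3 h and 6 h libraries overlapped. The log2 fold change against 0 h was -0.74 ± 0.06 at 1 h, -1.13 ± 0.06 at 3 h and -1.24 ± 0.06 at 6 h (adjusted p = 6.39e-07, 8.79e-09 and 1.98e-09, edgeR). GDH1 also fell from 1 h to 3 h (-0.39 ± 0.06, adjusted p = 4.23e-04), whereas the value from 3 h to 6 h was -0.11 ± 0.06 (adjusted p = 0.183).

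GDH3 (YAL062W, chromosome I, 31567 to 32940, plus strand) encodes the second NADP-dependent isozyme, which is known for its use on carbon sources other than glucose. Its libraries held 12.4, 12.6 and 12.2 CPM at 0 h and 9.41, 9.66 and 11.04 at 1 h. They held 19.9, 20.2 and 21.1 CPM at 3 h and 36.9, 36.2 and 33.1 at 6 h. The 3 h libraries all lay above 0 h and 1 h, and the 6 h libraries lay above those at 3 h. Against 0 h GDH3 rose by 0.72 ± 0.09 (log2) at 3 h and by 1.51 ± 0.09 at 6 h, a 2.85-fold level (adjusted p = 2.47e-05 and 6.03e-09, edgeR). It rose between times as well, by 1.02 ± 0.09 from 1 h to 3 h and by 0.80 ± 0.08 from 3 h to 6 h (adjusted p = 2.31e-06 and 1.08e-05). At 1 h it was slightly lower (-0.30 ± 0.10, adjusted p = 0.0228), but this call ended with total counts (-0.09, adjusted p = 0.503) and without 0 h replicate 1, 1 h replicate 1 or 1 h replicate 2 (adjusted p = 0.0520, 0.0834 and 0.0728). The counts behind these values were low, 90 to 120 per library at 0 h and 1 h.
GDH1 and GDH3 are 76.6% identical over 1368 aligned bases of coding sequence and share no exact run longer than 35 bases, and blastn listed no other copy of either. None of the 5 genes overlaps another annotated gene.
The windows of these isozyme genes are set side by side because their levels moved in opposite directions.
GDH1 promoter window, chrXV:1043093-1043392, minus strand: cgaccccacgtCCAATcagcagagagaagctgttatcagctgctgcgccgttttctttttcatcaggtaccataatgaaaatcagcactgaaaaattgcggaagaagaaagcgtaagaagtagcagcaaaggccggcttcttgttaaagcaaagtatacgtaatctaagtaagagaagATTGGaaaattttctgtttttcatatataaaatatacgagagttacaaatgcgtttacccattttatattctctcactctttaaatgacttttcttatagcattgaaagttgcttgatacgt
GDH3 promoter window, chrI:31217-31516, plus strand: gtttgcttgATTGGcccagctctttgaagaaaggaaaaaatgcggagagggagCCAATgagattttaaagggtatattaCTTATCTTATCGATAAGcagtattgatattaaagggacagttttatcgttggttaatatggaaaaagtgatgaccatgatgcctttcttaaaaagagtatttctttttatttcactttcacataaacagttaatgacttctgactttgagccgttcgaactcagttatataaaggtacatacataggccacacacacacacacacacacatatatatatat
The GDH1 window has CCAAT matches that begin 339 and 172 bases before the start codon, and no GATAAG match. The GDH3 window has CCAAT matches at 341 and 297 bases and 3 GATAAG matches at 271, 266 and 260 bases, the first of which shares a base with the next.

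The opposite movement changed the make-up of the isozyme pair. Per kb of coding sequence, GDH3 held 4.99% ± 0.107 (SD, n = 3) of the sum of both transcripts at 0 h, 6.65% ± 0.929 at 1 h, 15.9% ± 1.00 at 3 h and 26.1% ± 1.09 at 6 h. The sum itself went from 181 ± 5.84 CPM per kb at 0 h to 111 ± 8.12 at 1 h, 93.6 ± 3.20 at 3 h and 98.7 ± 3.11 at 6 h. The gain of GDH3 amounted to less, per kb, than the loss of GDH1.

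GLN1 (YPR035W, chromosome XVI, 642208 to 643320, plus strand) encodes the glutamine synthetase, whose transcript was the most abundant of the 5. Its libraries stood at 1592, 1494 and 1114 CPM at 0 h, 640, 591 and 602 after 1 h, 618, 592 and 593 after 3 h, and 664, 762 and 726 after 6 h. Replicate 3 was the low library at 0 h, yet it lay above all libraries of the later times. The log2 fold change against 0 h was -1.20 ± 0.11 at 1 h, -1.22 ± 0.11 at 3 h and -0.97 ± 0.11 at 6 h (adjusted p = 1.90e-06, 1.51e-06 and 6.31e-06, edgeR). Without 0 h replicate 3 these values were -1.38, -1.39 and -1.15. The change from 1 h to 3 h was -0.02 ± 0.11 (adjusted p = 0.881), and it was positive with total counts (0.10). From 3 h to 6 h the value was 0.25 ± 0.11 (adjusted p = 0.0698), and it was called higher without 0 h replicate 3 (adjusted p = 0.00182), without 0 h replicate 1 (adjusted p = 0.0387) or with the 3 h and 6 h libraries alone (adjusted p = 0.00434).
The GLN1 window is given for comparison with that of GLT1, its partner in the same route.
GLN1 promoter window, chrXVI:641858-642157, plus strand: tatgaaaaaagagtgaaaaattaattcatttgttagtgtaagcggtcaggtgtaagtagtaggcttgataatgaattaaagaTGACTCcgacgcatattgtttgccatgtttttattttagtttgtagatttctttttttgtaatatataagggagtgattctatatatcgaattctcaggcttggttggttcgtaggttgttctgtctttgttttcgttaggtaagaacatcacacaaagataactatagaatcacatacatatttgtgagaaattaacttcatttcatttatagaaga
It holds 1 TGACTC match, which begins 268 bases before the start codon, and no match to the other 4 motifs.

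GDH2 (YDL215C, chromosome IV, 70640 to 73918, minus strand) encodes the NAD-dependent dehydrogenase that breaks glutamate down. Its libraries stood at 289, 272 and 186 CPM at 0 h, 213, 200 and 177 after 1 h, 230, 203 and 181 after 3 h, and 372, 283 and 253 after 6 h. Every later time overlapped the 0 h range. The log2 fold change against 0 h was -0.34 ± 0.18 at 1 h, -0.29 ± 0.18 at 3 h and 0.28 ± 0.18 at 6 h (adjusted p = 0.144, 0.214 and 0.196, edgeR). Without 0 h replicate 3, in which GDH2 was low, the values were -0.55, -0.49 and 0.07 (adjusted p = 0.0216, 0.0330 and 0.736), so that GDH2 was called lower at 1 h and 3 h. With total counts the 3 h value turned to 0.04 and the 6 h value was 0.57 (adjusted p = 0.838 and 0.0139). GDH2 rose from 3 h to 6 h (0.57 ± 0.18, adjusted p = 0.0282), a call that ended without 3 h replicate 2, 3 h replicate 3 or 6 h replicate 1 (adjusted p = 0.0723, 0.0963 and 0.109). Its call over the 4 times (adjusted p = 0.0273) ended without 1 h replicate 3 or 6 h replicate 1 (adjusted p = 0.0574 and 0.0803).

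The order of the transcripts changed with time. On the scale of CPM per kb of coding sequence, the 0 h means were 1258 ± 227 for GLN1, 172 ± 5.71 for GDH1, 120 ± 2.56 for GLT1, 75.9 ± 16.8 for GDH2 and 9.03 ± 0.163 for GDH3 (SD, n = 3). At 1 h GLT1 had dropped below GDH2, at 47.7 ± 3.42 against 59.9 ± 5.58. At 6 h the order was GLN1 (644 ± 44.9), GDH2 (92.4 ± 18.7), GDH1 (72.9 ± 2.34), GDH3 (25.8 ± 1.45) and GLT1 (13.3 ± 0.632). GLT1, the third most abundant transcript at the start, was then the scarcest. Neighbours in this order did not overlap at any time, although the lowest GDH2 library at 6 h (77.3) lay close to the highest GDH1 library (75.6).

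**Figure D2:**
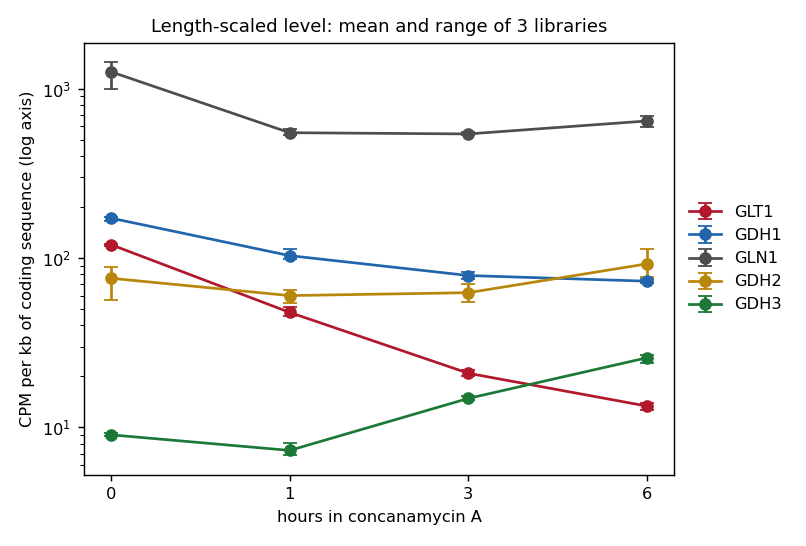
Length-scaled level of the 5 transcripts (CPM per kb of coding sequence, log axis) at 0, 1, 3 and 6 h, with points at the mean and bars over the range of 3 libraries. The GLT1 line starts at 120 and crosses those of GDH2 and GDH3 to end lowest at 13.3, while GLN1 stays highest throughout.

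Ratios of counts within a library do not depend on how libraries are scaled. Such ratios of 4 gene pairs were compared over the 4 times with an exact permutation test of the F statistic (369600 assignments of the 12 libraries, p adjusted over the 4 ratios). They are not divided by gene length, so their changes can be read, but their sign does not rank the transcripts. Per kb, GDH1 lay above GLT1 already at 0 h (172 against 120). The log2 ratio of GLT1 to GDH1, one enzyme from each route to glutamate, went from 1.72 ± 0.0670 (SD, n = 3) at 0 h to 1.12 ± 0.0167, 0.32 ± 0.133 and -0.21 ± 0.112 at 1, 3 and 6 h. This is a 3.82-fold fall by 6 h (exact p = 6.49e-05, the smallest this design can give, adjusted p = 8.66e-05). The ratio of GDH3 to GDH1 went from -4.24 ± 0.0334 to -3.81 ± 0.217, -2.40 ± 0.107 and -1.49 ± 0.0809, a 6.70-fold rise by 6 h (the same exact p and adjusted p). The ratio of the ammonium-releasing GDH2 to GDH1 rose from 0.06 ± 0.297 to 0.48 ± 0.0868, 0.92 ± 0.108 and 1.59 ± 0.299, which is 2.88-fold by 6 h (the same exact p and adjusted p). Its change in the first hour, 0.42, was 0.25 without 0 h replicate 3. GLN1 to GLT1, the partners of the second route, stood at 0.84 ± 0.284 at 0 h and 0.99 ± 0.0483 at 1 h, and then rose to 2.16 ± 0.0962 and 3.06 ± 0.169 (exact p = 3.90e-04, adjusted p = 3.90e-04). The first-hour change of 0.15 was 0.24 without 0 h replicate 1 and -0.012 without 0 h replicate 3, so it has no settled direction. Most of the rise lay after the first hour, when GLT1 fell further.

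**Figure D3:**
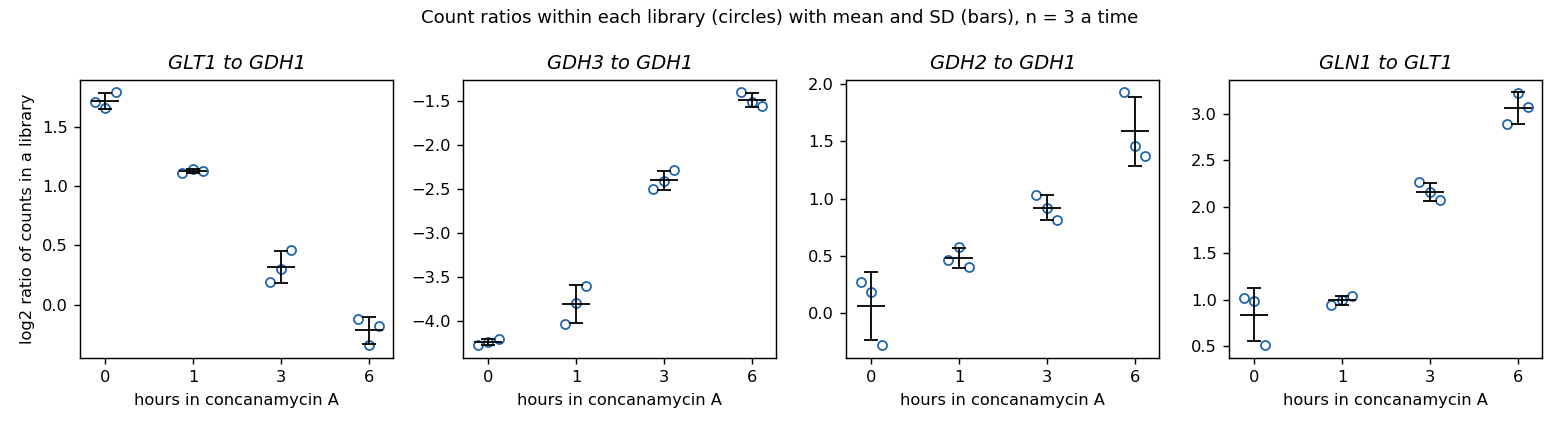
Log2 ratio of counts, not divided by gene length, of 4 gene pairs in each library (circles) at 0, 1, 3 and 6 h, with the mean and SD of 3 libraries (black). GLT1 to GDH1 runs downward from 1.72 to -0.21, while GDH3 to GDH1, GDH2 to GDH1 and, after 1 h, GLN1 to GLT1 run upward.

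GLT1 was next set beside the other iron-sulfur enzymes of amino acid synthesis. LEU1 (isopropylmalate isomerase), ILV3 (dihydroxyacid dehydratase of branched-chain synthesis), LYS4 (homoaconitase of lysine synthesis) and MET5 (a sulfite reductase subunit) complete this list of 5. By the same edgeR test all 5 were lower after 1 h and 6 h and 4 of 5 after 3 h, with medians of -0.67, -1.66 and -2.97 on the log2 scale, against -0.00, 0.02 and 0.05 over all features. With total counts 4 of 5 were lower at each of these times. ILV3 went to -0.67 ± 0.11, -1.66 ± 0.11 and -2.97 ± 0.11, and LYS4 to -0.63 ± 0.09, -0.98 ± 0.09 and -1.53 ± 0.09. LEU1 moved more than GLT1 and reached -4.12 ± 0.09 at 6 h. MET5 differed from the rest, at -0.27 ± 0.06, 0.22 ± 0.06 and -0.40 ± 0.07, and its higher call at 3 h ended without 0 h replicate 2. In a wider list of 23 iron-sulfur proteins, which includes these 5, 13, 14 and 17 were lower at 1, 3 and 6 h and 4, 2 and 1 were higher. Over all features, 23.4%, 24.5% and 28.9% were lower and 24.5%, 26.3% and 33.0% higher at these times. With total counts 11, 10 and 12 of the 23 were lower and 4, 10 and 4 higher, so that both directions were equal at 3 h, when 8.87% of all features were lower and 63.7% higher. The 4 higher calls at 1 h became 2 on leaving out any single library other than 0 h replicate 1, 1 h replicate 2 or 6 h replicate 1, and those at 3 h became 1 without 0 h replicate 2. The lower ones include the biotin synthase BIO2 (-2.11 ± 0.09 at 6 h) and the ribosome recycling factor RLI1 (-1.86 at 6 h). Of the 8 genes that build and insert such clusters in the cytosol, 6 were higher and 0 lower at 1 h (1 lower without 0 h replicate 2 or 3). The median of the 8 was 0.34, and they were led by DRE2 (0.83 ± 0.08), which feeds electrons to this assembly. DRE2 and NAR1 also belong to the 23 and are among its 4 higher calls at 1 h, and NAR1 is among its 2 at 3 h. At 3 h 5 of the 8 were higher and 1 lower (7 and 0 with total counts). The 5 became 3 on leaving out any one of the 0 h libraries or 3 h replicate 2, and the lower call ended on leaving out any single library other than 0 h replicate 3, 1 h replicate 3 or those of 6 h. At 6 h 1 was higher and 1 lower (5 and 1 with total counts, and 2 higher without 0 h replicate 3).

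**Figure D4:**
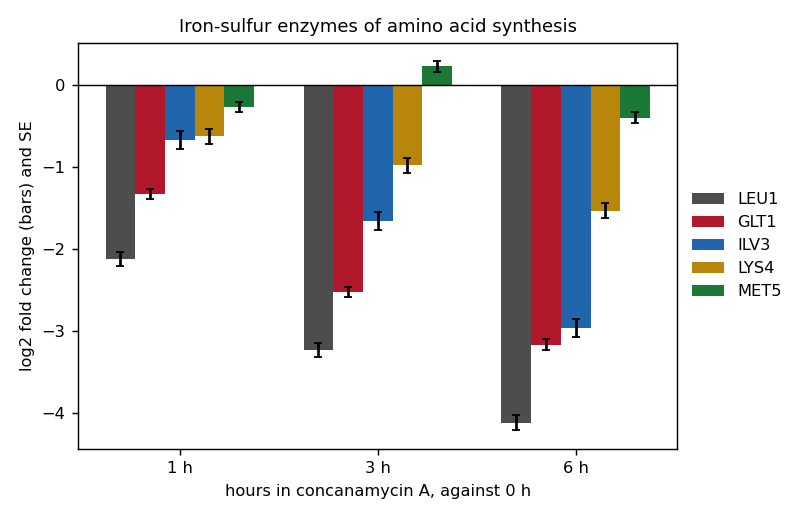
Log2 fold change against 0 h (bars, with SE) of 5 iron-sulfur enzymes of amino acid synthesis at 1, 3 and 6 h. LEU1, GLT1, ILV3 and LYS4 lie lower at each later time, with GLT1 at -3.17 and LEU1 at -4.12 at 6 h, and MET5 stays between -0.40 and 0.22.

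Genes that feed or drain glutamate and glutamine moved in both directions, as did all features. Of 71 genes on the lists from here on, regulators included and each counted once, 22, 17 and 25 were higher at 1, 3 and 6 h. Of the same 71, 19, 31 and 27 were lower. Calls are those of the edgeR fit, and every fold change is against 0 h. The counts stand beside 24.5%, 26.3% and 33.0% of all features higher and 23.4%, 24.5% and 28.9% lower at 1, 3 and 6 h. With total counts the shares of all features were 45.9%, 63.7% and 58.4% higher and 10.7%, 8.87% and 14.4% lower. In this and the following paragraphs, a list count that lies near these shares is not a result about its genes. Among 12 genes that make or carry 2-oxoglutarate, 1 was higher and 3 were lower at 1 h (5 and 1 with total counts, and 2 higher without 1 h replicate 1). At 3 h 2 were higher and 6 lower, and total counts turned this balance to 4 and 3. The 2 higher calls became 1 without 0 h replicate 1, 0 h replicate 3 or any single 3 h library. The lower ones at 3 h include the aconitase gene ACO1 (-2.26 ± 0.07). At 6 h 5 were higher and 3 lower (6 and 2 with total counts), and the subunits of mitochondrial isocitrate dehydrogenase then stood above 0 h (IDH1 at 1.23 ± 0.05, IDH2 at 0.81 ± 0.05) while ACO1 (-1.46) was below. IDP2, the cytosolic NADP-dependent isocitrate dehydrogenase, rose at each time (1.15, 1.04 and 1.17), from a low level of 5.97 CPM at 0 h.

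Glutamine is the amide donor of 15 listed amidotransferases, of which 8, 11 and 11 were lower at 1, 3 and 6 h and 3, 2 and 3 were higher. With total counts these were 7, 5 and 10 lower and 6, 4 and 4 higher. The asparagine synthetases ASN1 (-1.05 ± 0.07) and ASN2 (-0.95) and the purine enzyme ADE6 (-1.41 ± 0.05) were lower at 6 h, and CPA1 of arginine synthesis was higher (1.02 ± 0.19). SNO1 of this list rose most, to 3.01 at 6 h. It stood at 1.81 at 1 h and at 1.19 at 3 h, where it was not called. GFA1, the first enzyme of chitin precursor synthesis, was higher at 1 h (0.99 ± 0.05). It overlaps another annotated gene, which leaves its value uncertain. Of 14 aminotransferases, which pass amino groups to or from glutamate, 6, 5 and 4 were higher and 5, 7 and 7 lower at 1, 3 and 6 h. With total counts these were 7, 7 and 7 higher and 2, 4 and 6 lower. The mitochondrial branched-chain enzyme BAT1 went to -0.70, -1.20 and -1.84, and the alanine enzyme ALT1 to -0.61, -0.90 and -0.96, whereas the aromatic enzyme ARO9 rose to 2.45, 1.82 and 1.73.

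Genes that link arginine, proline and GABA (4-aminobutyrate) to glutamate were more often higher than lower. Of 9 such genes, which include the aminotransferases UGA1 and CAR2 of the list above, 7, 6 and 5 were higher and 1 was lower at 1, 3 and 6 h, against 24.5%, 26.3% and 33.0% of all features higher. With total counts 8, 7 and 8 were higher, against 45.9%, 63.7% and 58.4% of all features, and 0, 0 and 1 lower. The lower call at 1 h ended without 0 h replicate 1, 1 h replicate 2 or 1 h replicate 3, and 2 were lower at 3 h without 0 h replicate 3. They were led by the arginase CAR1 (2.43, 1.56 and 1.36) and the proline oxidase PUT1 (0.73, 0.87 and 1.92). The proline synthesis gene PRO2 was lower at 6 h (-0.57 ± 0.05). Of 8 permeases and carriers, 3 were higher and 0 lower at 1 h (5 and 0 with total counts), 1 was higher and 3 lower at 3 h (5 and 0 with total counts), and 2 were higher and 3 lower at 6 h (3 and 1 with total counts). Without 0 h replicate 3, 1 was lower at 1 h and 2 were higher at 3 h, and without 3 h replicate 1 only 1 was lower at 3 h. The 6 h counts, 2 and 3 of 8, lie near the 33.0% and 28.9% over all features. The high-affinity ammonium permease MEP2 rose at each time (0.91, 0.82 and 0.91), from a level of 9.90 CPM at 0 h. The other ammonium permeases, MEP1 and MEP3, were lower at 3 h (-0.55 ± 0.17 and -0.30 ± 0.11), and MEP3 also at 6 h (-0.54 ± 0.11). MEP1 was scarce, at 8.56 CPM at 0 h and 5.79 at 3 h. The 3 h call did not hold in 4 of 19 alternative settings for MEP1 and in 2 of 20 for MEP3. The 6 h call of MEP3 did not hold in 1 of 20. With total counts MEP1 stood at -0.21 at 3 h, and MEP3 at 0.035 and -0.24 at 3 h and 6 h.

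Of 15 regulators of these enzymes, 4 were higher and 2 lower at 1 h (7 and 2 with total counts), 2 and 3 at 3 h (8 and 2), and 7 and 2 at 6 h (13 and 2). Over all features 24.5%, 26.3% and 33.0% were higher and 23.4%, 24.5% and 28.9% lower. The 2 lower at 1 h became 1 without 0 h replicate 1 and 4 without 0 h replicate 3. The 7 higher at 6 h became 3 without 0 h replicate 2 and 4 without 6 h replicate 2 or 3. GCN4, the activator of amino acid synthesis genes, was lower at all 3 times (-0.53, -0.58 and -0.50). HAP4, the regulated subunit of the Hap complex, stood at -1.29 at 1 h, -1.79 ± 0.36 at 3 h and -1.78 ± 0.36 at 6 h. Its 1 h call ended in 1 of 20 alternative settings. HAP3, another subunit of this complex, was higher at all 3 times (0.43, 0.68 and 0.35). The nitrogen repressor GZF3 was higher at 1 h (0.80 ± 0.16) and 3 h (0.62 ± 0.16). DAL80, also of this list, was higher at 6 h (2.05), a call kept in all 19 alternative settings that tested it. At 1 h and 3 h DAL80 was not called (-0.52 and 0.23). Transcript levels do not report the activity of these factors.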

How the data were processed

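RNA of 12 libraries was measured by stranded total RNA sequencing after rRNA removal. The authors deposited raw counts per feature. STAR 2.5.2b, featureCounts 1.5.1 and build R64 are named in the submitters' processing notes; the strand setting is not given in the sources used here. After 3 blank lines were left out, 6216 features remained, joined to RefSeq R64 by systematic name. The test was that of edgeR 4.0.16, run in R 4.3.3, with settings (robust quasi-likelihood, TMM, edgeR's low-count filter, 5615 features, 12 libraries in a fit on time), with p adjusted by Benjamini and Hochberg over all features in each of 5 comparisons and a threshold of 0.05. SE is the absolute log2 fold change over the square root of F. Ratios used counts plus 0.5. Copies were sought with blastn 2.17.0. Alternatives were DESeq2 1.42.0, its size factors, total counts, scaling on nuclear reading frames, no filter, 10 CPM in 3 libraries, only the times compared, each library left out, and 5 added to counts in ratios. Steps were tested on simulated data. Replicates differed by more than counting error, with a chi-square of 3.13 to 30.2 for each degree of freedom. Replicate numbers follow accession order. The 5 genes and all gene lists were chosen with earlier results of these data known. Named genes are the 5 and at most 4 called genes of each list by size of change against 0 h. The 3 features most like each of the 5 by correlation were also named. List genes outside this rule, such as MET5, were named after their values were seen.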

Additional observations from a re-analysis of the deposited data

How the results depend on the processing

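Over 20 alternatives (19 for the F test), the calls of GLT1, GDH1 and GLN1 against 0 h and of GDH3 at 3 h and 6 h kept their direction and side of the threshold, and the adjusted p of the 4 ratios stayed past it over 13. Leaving out a 0 h library moved the change of a ratio at 1 h or 3 h past a limit in 9 cases. The limit was the SD of the ratio over the libraries of the later time, without the 0 h spread. It was only 0.0167 for GLT1 to GDH1 at 1 h. The first-hour change of GLN1 to GLT1 turned from 0.15 to -0.012 without 0 h replicate 3. GLT1 at 6 h ran from -3.22 to -2.87, GDH1 from -1.31 to -0.94, GLN1 from -1.15 to -0.67 and GDH3 from 1.46 to 1.81. Total counts gave -0.0931 for GDH3 at 1 h, 0.0435 for GDH2 at 3 h, 0.57 for GDH2 at 6 h and 0.0977 for GLN1 from 1 h to 3 h. GDH3 at 1 h was also not called by DESeq2 (-0.31) or with its 2 times alone (-0.30), and GLN1 from 3 h to 6 h was called with those libraries alone (0.25). Leaving out single libraries, the ranges were -0.38 to -0.26 for GDH3 at 1 h, -0.55 to -0.22 and -0.49 to -0.16 for GDH2 at 1 h and 3 h, -0.0370 to 0.141 for GDH2 and -0.0470 to 0.0106 for GLN1 from 1 h to 3 h, 0.39 to 0.68 for GDH2 and 0.21 to 0.31 for GLN1 from 3 h to 6 h, and 3.40 to 8.78 for the F of GDH2. GDH2 from 1 h to 3 h turned negative without 1 h replicate 3 (-0.0145) or 3 h replicate 1 (-0.0370), and GLN1 turned positive without 1 h replicate 1 (0.0106). The cause was not tested. The table header gives each time the letters A, B and C, which the labels do not explain. Over the 18 pairs with the same letter, correlations of deviations ran from -0.08 to 0.46. They lay over 0.1 in 12 pairs, and the pairs below 0.1 were all of letter B. Of 12 libraries, 9 lay closest to one of their own letter. With the letter as replicate block, a fit added after the data were seen, GDH2 was called at 1, 3 and 6 h against 0 h (-0.32, -0.27 and 0.29), and its libraries ranked A, B, C at every time; no other call of the 5 genes changed. Low counts limit GDH3.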

Other observations

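Likeness of pattern was described with Pearson's r of log2 CPM over the 12 libraries, among 4103 other features with a mean of at least 10 CPM that changed over the 4 times. The points share libraries, times and scaling, so no p is given. GLT1 was most like the aldolase gene FBA1 (r = 0.995), the ribosomal protein gene RPL9A (0.992) and LEU1 (0.990). Their sizes differed, with log2 fold changes at 6 h of -1.36, -2.29 and -4.12 against -3.17 for GLT1. GDH1 was most like the chitinase gene CTS1 (0.994), RPP1B (0.990), which encodes a ribosomal stalk protein, and MAP2 (0.989), a methionine aminopeptidase gene. GDH3 was most like ERG6 (0.993) of ergosterol synthesis, HES1 (0.989), an oxysterol-binding protein gene, and FIT1 (0.989), a cell wall mannoprotein gene of siderophore iron retention. At 6 h these stood at 1.12, 5.28 and 4.04 against 1.51 for GDH3.

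GLN1 was most like GCN4 (0.986), the glycerol phosphate dehydrogenase gene GPD2 (0.983) and RPL4B (0.979), whose reads cannot always be told from those of its near-identical copy RPL4A. GDH2 was most like CAT8 (0.979), the activator of gluconeogenic genes, the GTPase activator gene GYP1 (0.977) and the kinase gene YAK1 (0.972), which overlaps another annotated gene. CAT8 stood at -0.97, -0.79 and 0.66 at 1, 3 and 6 h. Among the 5 enzymes, r was 0.973 between GLT1 and GDH1, 0.844 between GDH1 and GLN1 and -0.826 between GLT1 and GDH3.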
